A study of Mus musculus with 6 samples.

Results

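The genes described here are the Hox genes, their cofactors of the Meis and Pbx families, the T-box (Tbx) genes, and 6 transcription factors that mark regions of the gut mesenchyme (Nkx2-3, Nkx3-2, Barx1, Tcf21, Gata4 and Gata6). They were taken by gene name from the deposited gene table, which holds 39 of them among 15238 genes: 21 Hox, 3 Meis, 4 Pbx and 5 Tbx genes and all 6 regional factors. Bulk RNA was sequenced from intestinal fibroblasts of Balb/c mice taken on postnatal day 9, which had been sorted as podoplanin-positive cells that lacked CD45, EpCAM and CD31, the surface proteins of leukocytes, epithelium and endothelium. The 3 DdblGata1 libraries (replicates 4, 9 and 10) came from pups that lack eosinophils, because a promoter element that the eosinophil lineage needs is deleted from Gata1 in every cell of the animal. The 3 wild-type libraries (replicates 1, 3 and 4) came from pups of the same strain and age. The labels name the tissue only as intestine and say neither which stretches of gut were taken nor whether each library is a separate animal. The p-values therefore measure the spread between these libraries, which may be technical.

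Hox genes encode homeodomain proteins and lie in clusters on separate chromosomes, in which a gene's paralog number gives its place. Low numbers are used in anterior parts of the body and high numbers in posterior parts, including the hindgut, and fibroblasts keep such a code of position into adult life. Meis and Pbx proteins are homeodomain cofactors of the TALE class that bind DNA together with Hox proteins. T-box factors pattern limb, heart and body wall mesenchyme, and Nkx2-3, Barx1, Gata4, Gata6 and their like set apart stomach, small intestine and colon during development.

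Between 28110454 and 31210800 estimated counts were assigned to genes in each library. Gata1 itself had 0 counts in each DdblGata1 library and 1, 0 and 0 in wild-type replicates 1, 3 and 4, so that the genotype could not be read from it in these cells. The 10 fibroblast markers summed to between 58390 and 71100 TPM (a level scaled for transcript length and library total) in DdblGata1 libraries and between 48090 and 70810 TPM in wild-type libraries. These sums overlapped, but 4 of the 10 markers (Thy1, Cd34, Pdpn and Dcn) were higher in every DdblGata1 library than in any wild-type library. Thy1 had 279 to 529 TPM in DdblGata1 and 121 to 166 TPM in wild-type libraries. Cd34 had 877 to 1019 TPM in DdblGata1 and 329 to 602 TPM in wild-type libraries. The other markers overlapped, and some had their lowest values in DdblGata1. Col1a1 had 11400, 5176 and 4195 TPM in DdblGata1 replicates 4, 9 and 10 and 7608, 7643 and 11380 TPM in wild-type replicates 1, 3 and 4. Col1a2 had 5388 to 11070 TPM in DdblGata1 and 7134 to 11320 TPM in wild-type libraries. The 12 leukocyte markers summed to between 39.5 and 96.5 TPM in DdblGata1 libraries and between 68.5 and 126 TPM in wild-type libraries, and Epx, an eosinophil granule gene, was at 0 in all 6. Wild-type replicate 1 stood apart in its epithelial markers, 12 genes that summed to 382, 518 and 378 TPM in DdblGata1 replicates 4, 9 and 10 and to 1512, 283 and 296 TPM in wild-type replicates 1, 3 and 4.

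The Hox genes that were read formed an anterior and middle set. Of the 23 annotated Hox genes with paralog numbers 1 to 8, the gene table holds 21, and of the 16 with numbers 9 to 13 it holds 0. The table lists genes with at least 10 counts in at least 3 libraries. For 4 of the 39 genes (Barx1, Hoxa6, Hoxd3 and Tbx15) all 3 DdblGata1 libraries but not all 3 wild-type libraries reached that minimum. The 16 posterior genes were looked up in the transcript files, where the highest count of any of them in any library was 13, for Hoxa10. For 5 of them, Hoxb13, Hoxc11, Hoxc12, Hoxc13 and Hoxd12, every library had 0 counts, which allows up to 3 counts per library, or 0.0961 to 0.107 CPM (counts scaled for library total). The anterior genes Hoxb1 and Hoxd1 were also below the minimum, with at most 8 and 2 counts.

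Summed over the whole family, Hox genes gave 217 ± 12.6 TPM in DdblGata1 and 224 ± 20.6 TPM in wild-type libraries (SD, n = 3 each). Over all 6 libraries, paralogs 4 and 5 made up 48.3% of this sum, paralogs 1 to 3 made up 35.0% and paralogs 6 to 8 made up 16.3%. Paralogs 9 to 13 made up 0.398%, with a range of 0.117% to 0.925% between libraries. The posterior sum was 0.607, 0.526 and 0.251 TPM in DdblGata1 replicates 4, 9 and 10 and 1.38, 2.06 and 0.529 TPM in wild-type replicates 1, 3 and 4. DdblGata1 replicate 4 lay above the lowest wild-type library, so the genotypes overlapped.

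**Figure D1:**
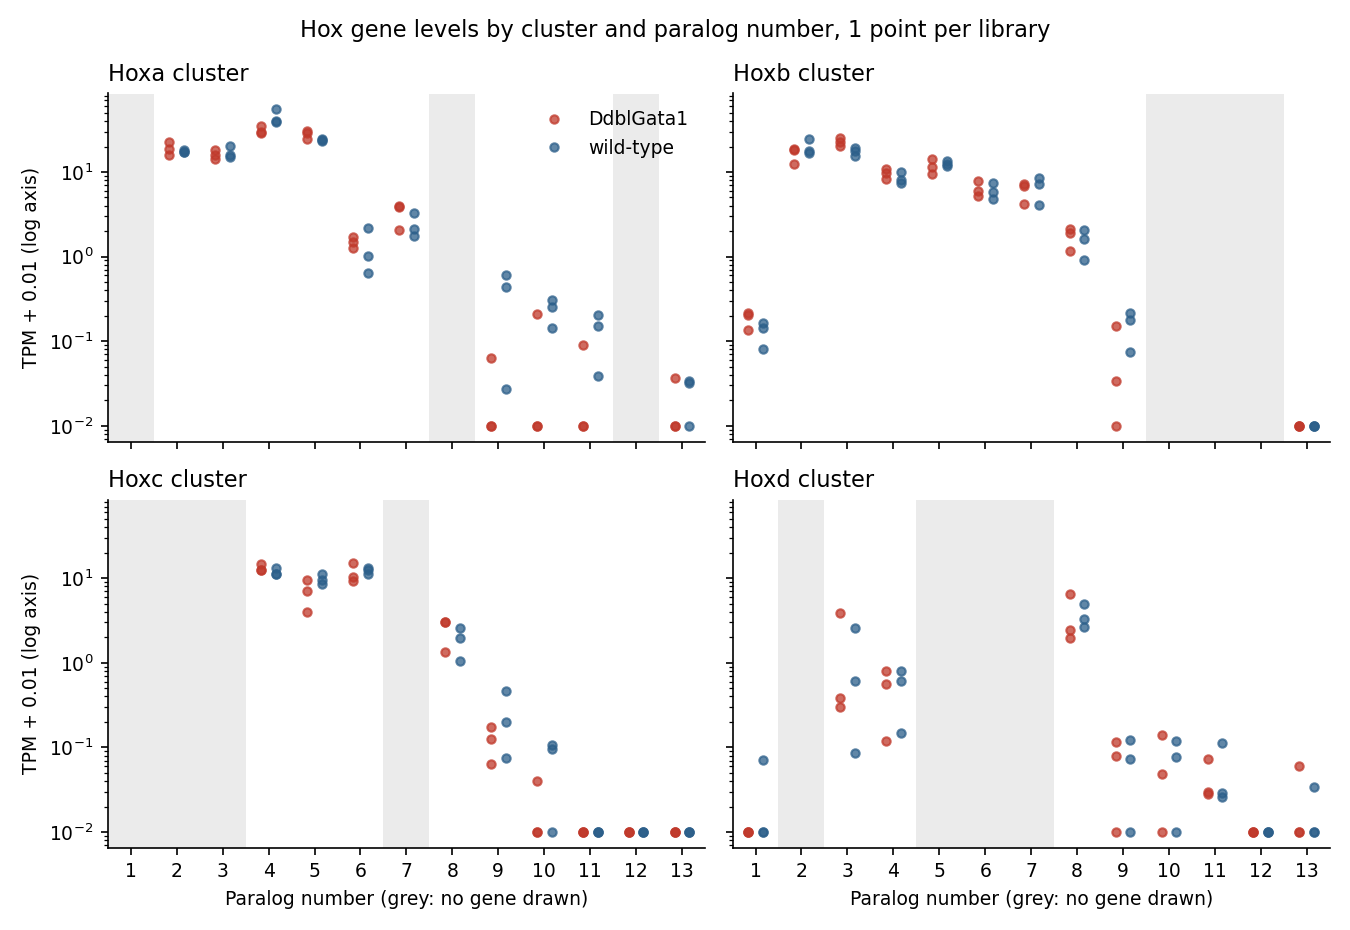
TPM of annotated Hox genes (log axis, 0.01 added so that zeros can be drawn) against paralog number, 1 panel per cluster, with DdblGata1 libraries left of wild-type libraries and each point a library. Levels lie below 1 TPM from paralog 9 onward in all 4 clusters. In the Hoxd cluster paralog 8 is highest on average, but Hoxd3 (3.83 TPM) exceeds Hoxd8 (2.45 TPM) in DdblGata1 replicate 4. The genotypes overlap at every gene drawn but Hoxa4, Hoxa5 and Hoxb3.

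The clusters contributed unequally. The Hoxa cluster (GRCm38, chromosome 6, 52155590 to 52260880) summed to 102 ± 12.6 TPM in DdblGata1 and 110 ± 10.8 TPM in wild-type libraries, or 44.0% to 50.1% of all Hox TPM across the libraries. The Hoxb cluster (chromosome 11, 96194316 to 96368256) summed to 74.8 ± 8.91 TPM in DdblGata1 and 72.7 ± 8.47 TPM in wild-type libraries. The Hoxc cluster (chromosome 15, 102921103 to 103036852) summed to 34.1 ± 7.03 TPM in DdblGata1 and 36.1 ± 2.69 TPM in wild-type libraries. The Hoxd cluster (chromosome 2, 74668310 to 74765142) was by far the lowest, at 5.78 ± 2.42 TPM in DdblGata1 and 5.40 ± 1.39 TPM in wild-type libraries. In each cluster the difference between genotypes was smaller than the SD of the group that varied more.

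By paralog number, the leading gene was Hoxa2 (18.4 TPM averaged over the 6 libraries), Hoxb3 (20.1 TPM), Hoxa4 (37.9 TPM), Hoxa5 (25.9 TPM), Hoxc6 (11.9 TPM), Hoxb7 (6.33 TPM) and Hoxd8 (3.63 TPM) for numbers 2 to 8. The means of Hoxb3 and Hoxd8 include short transcripts with few counts. Hoxb3-204 (446 bases, 5 to 13 counts) took 13.8% to 40.7% of the gene's TPM. Hoxd8-203 (557 bases, 1.06 to 15.7 counts) took 13.3% to 60.6%. Hoxa3 and Hoxc8, next in those groups, averaged 16.6 and 2.17 TPM. Group 4, which has a member in each cluster, was the highest, at 54.5 ± 3.61 TPM in DdblGata1 and 65.5 ± 9.23 TPM in wild-type libraries. Group 5 followed with 46.6 ± 1.13 TPM in DdblGata1 and 46.2 ± 1.82 TPM in wild-type libraries. Groups 2 and 3 were close to each other, at 36.5 and 38.0 TPM over all libraries. From group 6 the sums drop stepwise, from 19.4 TPM to 9.15 TPM for group 7, 7.42 TPM for group 8 and 0.514 TPM for group 9.

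Across the whole table, edgeR's quasi-likelihood test with Benjamini-Hochberg adjustment called 0 of 15238 genes (0%) between the genotypes at 0.05, and 0 of the 39. At an unadjusted p under 0.05 it took 1564 genes (10.3%), and 6 of the 39 (15.4%): 2 higher in DdblGata1, beside 6.03% of all genes, and 4 lower, beside 4.23%. DESeq2, run as an alternative, called 214 genes (1.4%). It called 1 of the 39 higher in DdblGata1, Gata6, beside 0.932% of all genes, and 1 lower, Tcf21, beside 0.473%. With the authors' surrogate variables, DESeq2 called 449 genes (2.95%) and, of the 39, Tcf21 alone. limma-voom, and limma on log2(TPM + 1), called 0 of all genes and so none of the 39. Fitted fold changes, as log2 of DdblGata1 over wild-type, were above 0 for 24 of the 39 genes and below 0 for 15, with a median of 0.06 beside -0.01 over all genes. The CPM of the genotypes did not overlap for 9 of the 39, beside 16.3% of all genes. Gata6, Hoxb3, Pbx4 and Tbx15 were higher in every DdblGata1 library, as were 8.98% of all genes. Tcf21, Nkx2-3, Nkx3-2, Pbx3 and Hoxa4 were lower in every DdblGata1 library, as were 7.34% of all genes. In TPM 11 of the 39 did not overlap (17.8% of all genes) and on plain sums of transcript counts 8 (19% of all genes), and 7 were separated on all 3 scales, which leaves out Hoxb3 and Pbx4.

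**Figure D2:**
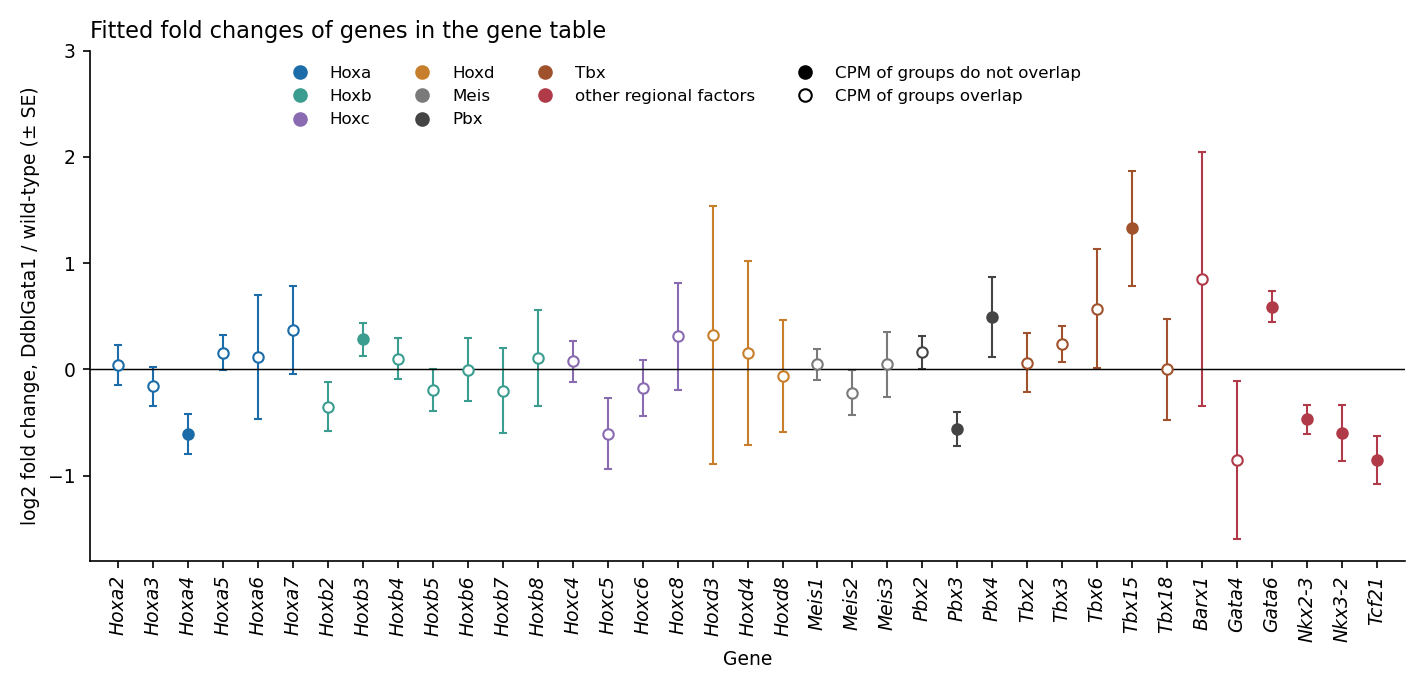
Fitted log2 fold change (DdblGata1 over wild-type, edgeR) of 37 of the 39 genes with its SE, coloured by family and ordered by cluster and number; filled points mark genes whose libraries do not overlap in CPM. Most Hox genes lie within 0.4 of 0, and the filled points below 0 are Hoxa4, Pbx3, Nkx2-3, Nkx3-2 and Tcf21.

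Among the 21 Hox genes, 12 were above 0 and 9 below, and 1 (4.76%) had an unadjusted p under 0.05, beside 10.3% of all genes. Their median fold change was 0.08 (log2), with 0.12 for the Hoxa genes, -0.00 for Hoxb, -0.05 for Hoxc and 0.16 for Hoxd.

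Hoxa4 was the Hox gene with the smallest p. Its CPM was 24.2, 29.4 and 26.5 in DdblGata1 replicates 4, 9 and 10 and 50.2, 37.9 and 34.0 in wild-type replicates 1, 3 and 4. Every DdblGata1 library lay below every wild-type library, and wild-type replicate 1 was the highest. The fitted fold change was -0.61 ± 0.19 (log2, SE), with an unadjusted p of 0.0123 and an adjusted p of 0.422 by edgeR. Without wild-type replicate 1 it was at its smallest among the fits that left out 1 library, -0.45. Its neighbours on the cluster had fitted fold changes of -0.16 (Hoxa3, unadjusted p = 0.416 by edgeR) and 0.16 (Hoxa5, 0.368). Hoxa4 (chromosome 6, 52189671 to 52191753) lies inside the annotated span of Hoxa3 on the same strand (52169062 to 52213336).

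Hoxb3 was the only other Hox gene whose libraries did not overlap in CPM. Its CPM was 31.4, 35.5 and 29.6 in DdblGata1 libraries and 27.0, 24.2 and 28.1 in wild-type libraries, a gap that is small beside the spread within a group. Its fitted fold change was 0.28 ± 0.16, with an adjusted p of 0.539 by edgeR. Hoxb3-204, a processed transcript of 446 bases, took 40.7%, 25.9% and 24.8% of the gene's TPM in DdblGata1 libraries and 15.2%, 13.8% and 31.5% in wild-type libraries. On plain sums of transcript counts, which do not weight transcripts by length, the groups overlapped.

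The low Hoxd genes varied most between libraries. Hoxd3 had 117, 13 and 11 counts in DdblGata1 replicates 4, 9 and 10 and 4, 93 and 22 in wild-type replicates 1, 3 and 4, so that 1 library of each genotype held most of the counts. In DdblGata1 replicate 4 the transcripts of Hoxd3 summed to 27.7 counts, and the table's 117 reflects its length scaling: Hoxd3-205, of 415 bases, took 86.4% of the TPM there. Hoxd4, whose annotated span lies inside that of Hoxd3, had 18, 14 and 3 counts in DdblGata1 libraries and 3, 9 and 21 in wild-type libraries. The genotypes overlapped for both. Hoxd8, the best read gene of the cluster, had 51, 46 and 160 counts in DdblGata1 libraries and 133, 81 and 64 in wild-type libraries.

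Hoxc5 had the second lowest fitted fold change of the family, -0.60 ± 0.34, with an adjusted p of 0.542 by edgeR. Its CPM was 8.29, 4.63 and 11.6 in DdblGata1 libraries and 12.1, 14.8 and 10.4 in wild-type libraries, with DdblGata1 replicate 10 inside the wild-type range. Length scaling lowered DdblGata1 replicate 9 from 213 to 140 counts and raised wild-type replicate 3 from 329 to 428. Plain sums were 246, 213 and 325 in DdblGata1 libraries and 374, 329 and 258 in wild-type libraries.

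Several cofactors were abundant. Meis2 and Meis1 averaged 71.1 and 65.1 TPM over all libraries, above every Hox gene, Pbx3 46.6, Pbx2 28.1 and Meis3 27.2. Of the Hox genes only Hoxa4 had a mean above those of Pbx2 and Meis3. That order did not hold in each library. Hoxa5 (mean 25.9 TPM) was above Meis3 in DdblGata1 replicates 9 and 10 and wild-type replicate 3. It was above Pbx2 in DdblGata1 replicate 10 and wild-type replicate 3. Pbx4 was low, at 2.70 TPM.

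The 3 Meis genes overlapped between genotypes. Meis1 averaged 115 ± 14.3 CPM in DdblGata1 and 111 ± 5.37 CPM in wild-type libraries, a fitted fold change of 0.05 ± 0.14. Meis2 averaged 96.6 ± 17.0 CPM in DdblGata1 and 113 ± 27.7 CPM in wild-type libraries, a fitted fold change of -0.22 ± 0.21. Meis3 had 28.6, 18.7 and 12.3 CPM in DdblGata1 libraries and 20.0, 15.9 and 21.7 CPM in wild-type libraries. On this scale the DdblGata1 libraries enclosed the wild-type ones, but the value of DdblGata1 replicate 4 is 780 counts scaled up from 513 transcript counts. Plain sums of its transcript counts were 513, 600 and 508 in DdblGata1 libraries and 683, 502 and 568 in wild-type libraries. There wild-type replicate 1 was the highest.

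Among the Pbx genes, Pbx3 was lower in DdblGata1. Its CPM was 46.9, 53.4 and 46.8 in DdblGata1 replicates 4, 9 and 10 and 83.6, 61.0 and 72.1 in wild-type replicates 1, 3 and 4. No DdblGata1 library reached the lowest wild-type library. This gave a fold change of -0.56 ± 0.16, with an unadjusted p of 0.00805 and an adjusted p of 0.402 by edgeR and 0.0965 by DESeq2. Pbx2 averaged 44.0 ± 4.51 CPM in DdblGata1 and 39.3 ± 4.36 CPM in wild-type libraries. Pbx4 had 42, 46 and 52 counts in DdblGata1 libraries and 41, 31 and 32 in wild-type libraries, a fitted fold change of 0.49 with an unadjusted p of 0.224 by edgeR. The 42 in DdblGata1 replicate 4 is scaled up from 22 transcript counts. Plain sums were 22, 47 and 54 in DdblGata1 libraries and 42, 44 and 31 in wild-type libraries, so DdblGata1 replicate 4 was then the lowest.

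Of 13 annotated Tbx genes, the table holds Tbx2, Tbx3, Tbx6, Tbx15 and Tbx18. Tbx2 and Tbx3, repressors used in many embryonic mesenchymes, were the best read, at 10.4 TPM each over all libraries. Tbx3 averaged 31.4 ± 3.44 CPM in DdblGata1 and 26.6 ± 3.27 CPM in wild-type libraries. Tbx2 had 32.4, 35.2 and 16.5 CPM in DdblGata1 libraries and 27.2, 24.5 and 28.6 CPM in wild-type libraries, with DdblGata1 replicate 10 the lowest of all 6. The unadjusted p by edgeR was 0.201 for Tbx3 and 0.821 for Tbx2.

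Tbx15, known for its part in limb and trunk mesenchyme, was the lowest of the 39 in TPM, with 20, 20 and 18 counts in DdblGata1 libraries and 11, 9 and 4 in wild-type libraries. The groups did not overlap, and 1 of the wild-type libraries reached the table's minimum of 10 counts. Its fold change was 1.33 ± 0.54, the highest of the 39, with an unadjusted p of 0.0390 and an adjusted p of 0.483 by edgeR. The unadjusted p was not under 0.05 in 5 of the 6 fits that left out 1 library, nor by DESeq2 (0.0951). Tbx18 had 64, 64 and 74 counts in DdblGata1 libraries and 35, 114 and 57 in wild-type libraries; the 114 is scaled up from 56 transcript counts. Tbx6 had 14, 39 and 53 counts in DdblGata1 libraries and 31, 27 and 15 in wild-type libraries.

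Tbx21, the T-bet factor of lymphocytes, lies outside the table and is named only because its values stood out. Its transcripts had 1, 0 and 4 counts in DdblGata1 replicates 4, 9 and 10 and 14, 18 and 10 in wild-type replicates 1, 3 and 4. In an edgeR fit of all 22041 annotated genes with a count, of which 9.96% had an unadjusted p under 0.05, its p was 0.00951 and its adjusted p 0.357. The leukocyte markers given above overlapped between the genotypes, and their part in this value was not tested. Hoxa10, also outside the table, had 0, 5 and 0 counts in DdblGata1 libraries and 8, 13 and 6 in wild-type libraries, with an unadjusted p of 0.0691 in that fit.

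The 6 regional factors held 3 of the 6 unadjusted p-values under 0.05 and 4 of the 9 separated genes, beside 10.3% and 16.3% of all genes. In bulk RNA, fewer cells that use a gene and less RNA of it per cell cannot be told apart.

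Tcf21, a basic helix-loop-helix factor of visceral fibroblasts, was the highest of the 39 genes, at 200 TPM over all libraries. Its CPM was 110, 80.8 and 64.3 in DdblGata1 replicates 4, 9 and 10 and 183, 130 and 148 in wild-type replicates 1, 3 and 4. The highest DdblGata1 library stayed below the lowest wild-type library. The means were 85.0 ± 23.1 CPM in DdblGata1 and 153 ± 27.1 CPM in wild-type libraries, a fitted fold change of -0.85 ± 0.22. The unadjusted p was 0.00520 and the adjusted p 0.384 by edgeR, and 0.0404 by DESeq2. DESeq2 no longer called it without DdblGata1 replicate 9 (adjusted p = 0.242) or 10 (0.299), or without wild-type replicate 1 (0.229) or 4 (0.135). The transcript Tcf21-201 carried at least 98.8% of its TPM in every library.

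Nkx2-3, a homeodomain factor of midgut and hindgut mesenchyme, averaged 47.4 TPM. Its CPM was 59.7, 51.8 and 49.0 in DdblGata1 libraries and 70.5, 76.1 and 75.6 in wild-type libraries. Both groups were tight and did not meet, and the fold change was -0.47 ± 0.14, with an unadjusted p of 0.00935 and an adjusted p of 0.407 by edgeR and 0.117 by DESeq2.

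The promoters of these 2 factors are shown because they are the abundant regional factors that were lower in every DdblGata1 library. RefSeq (GRCm38.p6) gives 300 bases, 250 before and 50 from the transcription start: chr10:22820094-22820393 on the minus strand for Tcf21 and chr19:43612075-43612374 on the plus strand for Nkx2-3. Capitals mark matches, on either strand, to 5 short motifs. TGACAG is that of Meis factors and TGATNNAT that of Hox and Pbx proteins bound together. TAATTA is a motif of many homeodomain proteins. The zinc finger factors related to Gata6 read AGATAA, and forkhead factors read TGTTTA.
Tcf21: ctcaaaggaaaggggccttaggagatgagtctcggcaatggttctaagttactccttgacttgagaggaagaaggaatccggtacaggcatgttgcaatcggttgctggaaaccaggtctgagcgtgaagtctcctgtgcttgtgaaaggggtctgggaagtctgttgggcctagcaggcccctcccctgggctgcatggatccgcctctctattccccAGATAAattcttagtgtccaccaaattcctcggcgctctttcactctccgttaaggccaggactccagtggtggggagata
Nkx2-3: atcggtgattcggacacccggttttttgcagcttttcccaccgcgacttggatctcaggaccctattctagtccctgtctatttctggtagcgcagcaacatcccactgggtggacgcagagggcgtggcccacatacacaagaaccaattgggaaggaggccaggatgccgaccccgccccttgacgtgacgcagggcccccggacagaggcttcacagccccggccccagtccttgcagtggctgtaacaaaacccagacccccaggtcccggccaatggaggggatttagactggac
The Tcf21 window held 1 match, AGATAA at position -31 from the RefSeq start, and the Nkx2-3 window held none of the 5. The Tcf21 match begins at base 22820174, where the GENCODE M21 gene starts. AGATAA occurs in 11.2% of the 32544 promoters of the same length, TGACAG in 19.1%, TGATNNAT in 8.79%, TAATTA in 5.29% and TGTTTA in 13.4%. A match is a run of letters in this window and does not show binding.

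Nkx3-2 (also Bapx1), a factor of stomach and splanchnic mesenchyme, was lower by value. Its CPM was 5.76, 7.35 and 4.26 in DdblGata1 libraries and 9.06, 9.17 and 8.05 in wild-type libraries, with no overlap. Its fitted fold change was -0.60 ± 0.26, with an unadjusted p of 0.0534 and an adjusted p of 0.486 by edgeR.

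Gata6, a zinc finger factor of gut endoderm and mesenchyme, went the other way. Its CPM was 49.1, 51.8 and 58.4 in DdblGata1 replicates 4, 9 and 10 and 33.5, 38.7 and 33.7 in wild-type replicates 1, 3 and 4. All DdblGata1 libraries lay above all wild-type libraries. The means were 53.1 ± 4.82 CPM in DdblGata1 and 35.3 ± 2.93 CPM in wild-type libraries, a fitted fold change of 0.59 ± 0.14. The unadjusted p of 0.00347 was the smallest of the 39, with an adjusted p of 0.384 by edgeR and 0.0466 by DESeq2. The DESeq2 call was lost without DdblGata1 replicate 9 (adjusted p = 0.215) or 10 (0.312), and without wild-type replicate 1 (0.214), 3 (0.0682) or 4 (0.206).

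**Figure D3:**
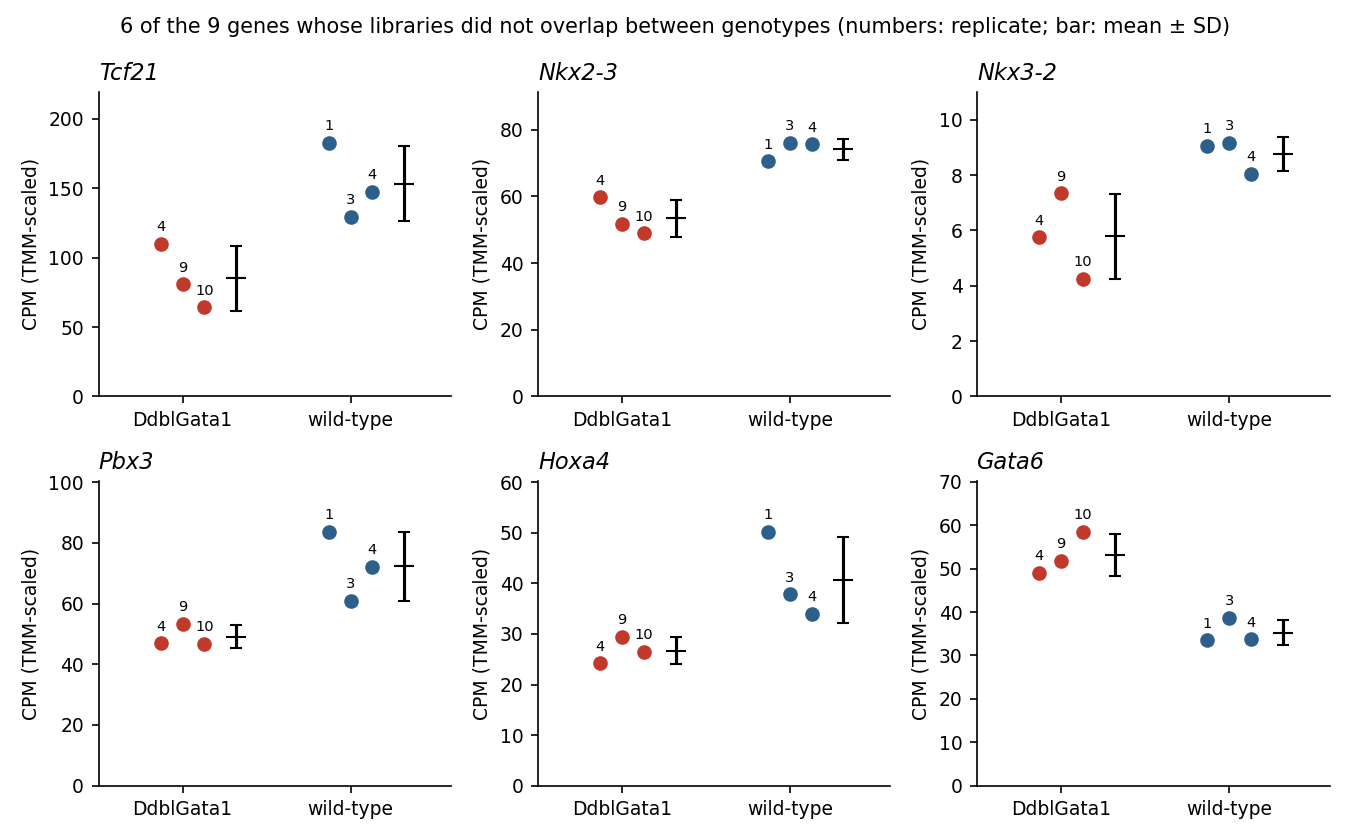
CPM (scaled by TMM) of 6 of the 9 genes whose libraries do not overlap, with DdblGata1 left of wild-type, the replicate number above each point, and the bar showing mean ± SD. Tcf21, Nkx2-3, Nkx3-2, Pbx3 and Hoxa4 lie lower in all 3 DdblGata1 libraries and Gata6 lies higher in all 3.

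Gata4 and Barx1 are the regional factors that differed most between libraries of the same genotype. Gata4, an anterior intestinal factor that epithelium uses as well, had 93, 206 and 91 counts in DdblGata1 replicates 4, 9 and 10 and 587, 64 and 110 in wild-type replicates 1, 3 and 4. The high library, wild-type replicate 1, is the one with the highest sum of epithelial markers, and replicate 9 is the highest DdblGata1 library on both. The fitted fold change was -0.85 ± 0.74 with all libraries and 0.57 without wild-type replicate 1, with adjusted p of 0.681 and 0.741 by edgeR. The part of epithelial RNA in these values was not tested.

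Barx1, a homeodomain factor of stomach mesenchyme, had 303, 401 and 50 counts in DdblGata1 replicates 4, 9 and 10 and 3, 99 and 332 in wild-type replicates 1, 3 and 4. That is a span from 0.0915 to 13.3 CPM, the widest of the 39 genes, with high and low libraries in both genotypes. The fitted fold change was 0.86 ± 1.20, with an adjusted p of 0.802 by edgeR. It was 0.26 without wild-type replicate 1 and 2.31 without wild-type replicate 4.

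**Figure D4:**
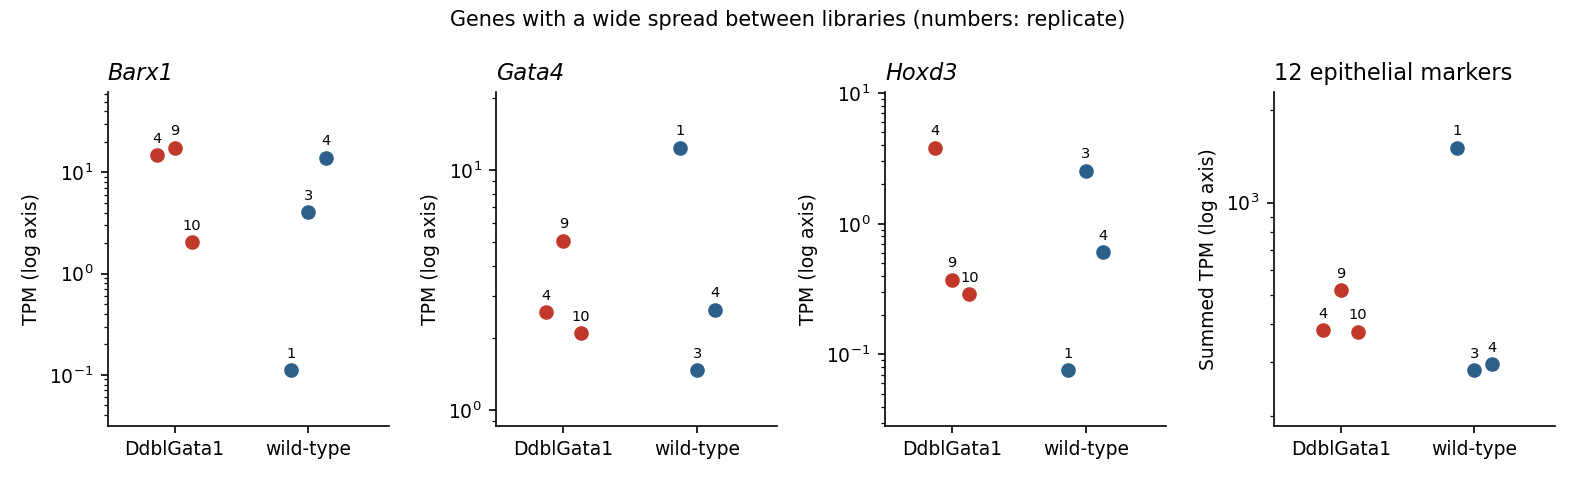
TPM (log axes) of Barx1, Gata4 and Hoxd3 in each library, beside the summed TPM of 12 epithelial markers, with DdblGata1 left of wild-type and replicate numbers above the points. Wild-type replicate 1 is highest for Gata4 and the epithelial sum and lowest for Barx1 and Hoxd3.

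Markers of other cell types also differed between the libraries. The 6 pericyte markers summed to 602 to 646 TPM in DdblGata1 and 759 to 974 TPM in wild-type libraries, and the 8 smooth muscle markers to 5970 to 9065 TPM in DdblGata1 and 8447 to 13350 TPM in wild-type libraries. The smooth muscle sums overlapped, and the pericyte sums were lower in every DdblGata1 library. So were 3 of the 6 pericyte markers (Rgs5, Kcnj8 and Cspg4) and Tcf21, Nkx2-3, Nkx3-2, Pbx3 and Hoxa4. Rgs5 made up most of the pericyte sum, at 402.5 to 416 TPM in DdblGata1 and 496 to 715 TPM in wild-type libraries. Abcc9, Notch3 and Pdgfrb overlapped. Pdgfrb had 41.1 to 50.4 TPM in DdblGata1 and 33.8 to 49.9 TPM in wild-type libraries. Notch3 had 7.32 to 17.9 TPM in DdblGata1 and 6.38 to 13.1 TPM in wild-type libraries. The 9 blood endothelium markers summed to 127 to 143 TPM in DdblGata1 and 96.8 to 112 TPM in wild-type libraries. Of these 9, Tek alone was separated, at 34.0 to 59.9 TPM in DdblGata1 and 11.1 to 21.04 TPM in wild-type libraries, and the other 8 summed to 72.2 to 109 TPM in DdblGata1 and 81.6 to 90.5 TPM in wild-type libraries, which overlap. The mesothelial gene Wt1 was also higher in every DdblGata1 library, at 33.8 to 46.9 TPM, against 17.0 to 22.8 TPM in wild-type libraries, while the 9 mesothelial markers together overlapped (272 to 437 TPM in DdblGata1 and 268 to 354 TPM in wild-type libraries). The part of any of these cell types, or of the fibroblast markers that were separated, in the values of the 39 genes was not tested.

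The sums of the remaining marker lists overlapped between the genotypes. Lymphatic endothelium markers gave 153 to 595 TPM in DdblGata1 and 158 to 478 TPM in wild-type libraries, and glial markers 88.5 to 144 TPM in DdblGata1 and 70.9 to 170 TPM in wild-type libraries. Neuronal markers gave 52.7 to 93.7 TPM in DdblGata1 and 36.1 to 88.5 TPM in wild-type libraries, and those of interstitial cells of Cajal 229 to 400 TPM in DdblGata1 and 378 to 501 TPM in wild-type libraries. The share of mitochondrial transcripts was 3.40%, 3.96% and 4.76% in DdblGata1 replicates 4, 9 and 10 and 5.95%, 5.92% and 4.11% in wild-type replicates 1, 3 and 4.

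Genes that act on Hox genes or beside them were read from lists. Retinoic acid and Cdx factors switch Hox genes on during axis formation. Of 17 genes of that list in the table, 13 were lower and 4 higher by value in DdblGata1, with a median fold change of -0.23, and 1 had an unadjusted p under 0.05, lower, beside 4.23% of all genes. It was Aldh1a3, which makes retinoic acid, at 139 ± 12.6 CPM in DdblGata1 and 201 ± 37.2 CPM in wild-type libraries (fold change -0.53 ± 0.17). Rdh10, which makes the precursor of retinoic acid, averaged 56.6 ± 4.86 CPM in DdblGata1 and 71.0 ± 6.51 CPM in wild-type libraries, with an unadjusted p of 0.0514.

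Trithorax proteins keep Hox genes active and Polycomb proteins keep them silent. Of 19 genes of the trithorax list, 15 were higher by value in DdblGata1, with a median fold change of 0.28, and 4 had an unadjusted p under 0.05, all higher: Kmt2a, Kmt2d, Kdm6a and Kmt2c. Kmt2a, the methyltransferase of histone H3 best known for Hox genes, averaged 96.6 ± 10.9 CPM in DdblGata1 and 64.6 ± 11.7 CPM in wild-type libraries, a fold change of 0.58 ± 0.17 with an adjusted p of 0.416 by edgeR. Of 28 Polycomb genes, 14 were higher and 14 lower by value, with a median of 0.02, and 3 had an unadjusted p under 0.05 (Rnf2, Phc3 and Mtf2, all higher). Over all genes, 6.03% were higher and 4.23% lower at that threshold.

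Of 9 other TALE genes, such as Irx and Pknox, 0 had an unadjusted p under 0.05 by edgeR, beside 10.3% of all genes. DESeq2 called 0 of them, beside 1.4% of all genes, and their median was 0.03. Of 14 genes that flank the Hox clusters, Atp5g3 (-0.51) was lower and Atf2 (0.42) higher at an unadjusted p under 0.05, and the median was -0.04. Beside them, 4.23% of all genes were lower and 6.03% higher at that threshold. Both genes lie near the Hoxd cluster, and their adjusted p by edgeR was 0.466 and 0.481.

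In the list of other mesenchymal transcription factors of the gut, 7 of 31 genes were higher and 2 lower at an unadjusted p under 0.05, beside 6.03% and 4.23% of all genes, with a median fold change of 0.19. DESeq2 called 2 of them, both higher in DdblGata1, beside 0.932% of all genes. Osr2 averaged 24.6 ± 5.67 CPM in DdblGata1 and 12.5 ± 1.58 CPM in wild-type libraries, a fold change of 0.98 ± 0.22 with an adjusted p of 0.0169 by DESeq2 and 0.384 by edgeR. Prrx1 averaged 154 ± 21.6 CPM in DdblGata1 and 76.4 ± 26.8 CPM in wild-type libraries, a fold change of 1.01 ± 0.27 with an adjusted p of 0.0390 by DESeq2 and 0.384 by edgeR. Foxf1, a forkhead factor of gut mesenchyme downstream of Hedgehog signals, averaged 81.6 ± 13.9 CPM in DdblGata1 and 125 ± 10.6 CPM in wild-type libraries, a fold change of -0.61 ± 0.17.

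Transcript usage was tested for the 22 of the 39 genes that have at least 2 transcripts above the filter. diffSpliceDGE with Simes adjustment called 24 of 9526 genes (0.252%) and 0 of the 22, and 190 genes and 0 of the 22 had an unadjusted p under 0.05.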

How the data were processed

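The gene table deposited by the authors holds whole-number estimated counts (expected counts). Within 1% plus 1 count, 99.7% of its values equal TPM summed per gene, multiplied by mean effective length and scaled to the library total, and 26.2% equal plain sums. The deposited transcript files give the authors' estimated counts, TPM and other values (effective lengths in bases) for 115270 transcripts, of which GENCODE M21 (GRCm38) placed 113580. The deposited sample sheet gives the authors' size factor as a ratio and 2 surrogate variables as a score. The submitters' processing notes name bcl2fastq 2.2, kallisto, R 4.2.2, DESeq2, mm10 and GRCm38.p6; the sources used here do not say whether counting used strand.

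Counts were rounded and compared, DdblGata1 over wild-type, with edgeR 4.0.16 (R 4.3.3: TMM, filterByExpr, robust quasi-likelihood, Benjamini-Hochberg at 0.05) over all 15238 genes. CPM are TMM-scaled. No covariate was used. Alternatives were DESeq2 1.42.0, limma 3.58.1 (voom, and log2(TPM + 1) or log2(TPM + 0.1)), other scalings and filters, plain transcript sums, the surrogate variables, and each library left out; DESeq2 on plain sums or without each library, the fit of all annotated genes and overlaps on other scales were added once results had been seen. The tests were checked on simulated counts.

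Genes named are those with unadjusted p under 0.05, the 12 with highest TPM, the leading gene per paralog number, the Meis, Pbx and regional factors, the 5 with the widest range and up to 4 per other list. Hoxa3, Hoxa10, Hoxc5, Tbx2, Tbx3, Tbx6, Tbx18, Tbx21 and the single marker genes were named beyond that rule, after their values were seen. For 2 genes no single values are given here. The genes and lists were chosen with earlier results of these data known. Of the noncoding genes of the Hox clusters that were listed, none was read from these files. Where a gene overlaps another, counts may be split between them.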

Additional observations from a re-analysis of the deposited data

How the results depend on the processing

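No paired analysis was run, because the labels do not pair libraries of the 2 genotypes. The count of genes called, 0 by edgeR, was 214 with DESeq2, 449 with DESeq2 and the surrogate variables, 310 with DESeq2 on plain transcript sums, and 0 to 1 without each library (1 without DdblGata1 replicate 4). Of the 39 genes, 0 were called by edgeR, 2 with DESeq2 (Gata6 and Tcf21), 1 with DESeq2 and the surrogate variables (Tcf21) and 3 with DESeq2 on plain transcript sums (with Pbx3). The cause of these differences was not tested. DESeq2 called 3 without DdblGata1 replicate 4, 1 without wild-type replicate 3 and 0 without each of the other libraries. Of the 39, between 5 and 8 had an unadjusted p under 0.05 under the 19 alternatives. Shares over all genes are not given here for those alternatives, nor for the DESeq2 fits that left out 1 library. These counts therefore do not set the 39 apart from other genes. The fit without a filter is counted among the 19 but repeats the main fit, because filterByExpr kept all 15238 genes. The median fold change of the Hox genes ranged from -0.10 to 0.12, so its sign was not stable. Gata4 reversed to 0.31 with the surrogate variables in edgeR, to 0.30 with them in DESeq2, and to 0.57 without wild-type replicate 1; without each library in turn it ranged from -1.33 to 0.57. In all 19 alternatives Tcf21 stayed between -1.08 and -0.61, Pbx3 between -0.67 and -0.46, Nkx2-3 between -0.56 and -0.38, Hoxa4 between -0.72 and -0.45, Nkx3-2 between -0.82 and -0.43 and Gata6 between 0.48 and 0.67. Tbx15 ranged from 0.27, on log2(TPM + 1), to 1.54 in 18 alternatives. Depth limits the posterior Hox genes, Hoxd3, Hoxd4, Tbx6 and Tbx15, which rest on few counts. Intervals for counts of 0 cover counting error only.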
